A study of Mus musculus with 12 samples.

Results

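The genes of the citric acid cycle and of the enzymes that feed it from branched-chain amino acids and ketone bodies were compared between the tibialis anterior, a fast hindlimb muscle, of 6 WT mice (C57Bl/6) and 6 mdx/mTR mice. The members were the 41 of 24421 entries of the count table whose symbols appear in a fixed list: 13 enzymes of the cycle, 7 shuttle and refilling enzymes, 18 enzymes of branched-chain catabolism, 2 of ketone body use and Adhfe1, a mitochondrial hydroxyacid transhydrogenase. All animals were male and 4 months old. In mdx mice Dmd, the dystrophin gene, is mutated, and mTR names the telomerase RNA gene. The labels give neither the telomerase generation nor a group with a single mutation, so the effects of the 2 alleles cannot be told apart. Nothing in the labels describes how the mice were bred or housed, and p-values measure the spread between these samples.

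In the matrix of the mitochondrion, the citric acid cycle oxidises acetyl-CoA to carbon dioxide and hands electrons to the respiratory chain. Breakdown of leucine, isoleucine and valine begins largely in muscle: a transaminase removes nitrogen, the branched-chain ketoacid dehydrogenase complex commits the carbon skeleton, and separate branches then deliver acetyl-CoA, acetoacetate or propionyl-CoA, the last of which enters the cycle as succinyl-CoA. Ketone bodies made in liver are oxidised in muscle through hydroxybutyrate dehydrogenase (Bdh1) and succinyl-CoA transferase (Oxct1).

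Library totals ran from 35136327 to 60330410 counts, and no member had fewer than 102 counts in any library, so all 41 passed the filter on low counts. Dmd, the check of the labels, lay between 228 and 244 CPM (counts relative to library size, scaled by the trimmed mean of M-values, TMM) in WT and between 35.2 and 56.4 CPM in mdx/mTR. Fast fibre markers were abundant in all libraries, with a summed level of 213745 to 240639 CPM in WT and 164749 to 224388 CPM in mdx/mTR. Of these 11 genes 2 were lower (Myh4 and Tnnc2) and 1 higher (Mylpf) in mdx/mTR. Of the other marker lists, 7 of 8 genes of regenerating fibres were higher in mdx/mTR (sum 32.8 to 44.7 CPM in WT, 115 to 517 in mdx/mTR), as were 7 of 8 macrophage genes (91.5 to 156 and 252 to 675 CPM) and 6 of 6 fibroblast genes (870 to 1593 and 2226 to 4434 CPM). Of 8 genes of oxidative and slow fibres 2 were lower and 5 higher (sum 752 to 2400 and 524 to 689 CPM), of 6 adipocyte genes tested 1 was lower (sum over 7 genes 539 to 739 and 467 to 732 CPM), of 6 endothelial genes 3 were lower (439 to 584 and 354 to 470 CPM), and of 5 Schwann cell genes 4 were lower (41.8 to 53.3 and 22.3 to 34.6 CPM). Of 5 T cell genes 1 passed the filter and was higher (sum 0.222 to 0.769 and 1.75 to 3.94 CPM). The largest part of the oxidative and slow fibre sum was Myh2 (mean 1058 CPM in WT, 407 in mdx/mTR). Myh2 and Myl3 were the lower genes of that list, and Myh7, Tnnt1, Tnni1, Tnnc1 and Atp2a2 the higher ones. Marker genes were counted as lower or higher at an adjusted p below 0.05 in edgeR's quasi-likelihood test. By that measure 23.4% of all tested genes were lower and 25.0% higher. The part of these lists in the results was not tested.

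Promoter sequence is shown for 3 members: Bdh1, with the largest fall, Idh1, the gene that rose, and Got1, shown only because its window holds AAGGTCA. Each line gives the 250 bases before the RefSeq start, 5′ to 3′ in the direction of the gene, on GRCm38.p6. In GENCODE M21 Bdh1 and Idh1 start slightly further upstream, so that the last bases of their windows lie within the GENCODE gene. Capitals mark AAGGTCA, the core motif of the oestrogen-related receptors, and CCAAT, the CCAAT box, on either strand (ATTGG where the box lies on the opposite one). The Bdh1 window is chr16:31422047-31422296 on the + strand, the Idh1 window chr1:65186480-65186729 on the - strand (each the most upstream of 2 starts) and the Got1 window chr19:43524606-43524855 on the - strand.
Bdh1: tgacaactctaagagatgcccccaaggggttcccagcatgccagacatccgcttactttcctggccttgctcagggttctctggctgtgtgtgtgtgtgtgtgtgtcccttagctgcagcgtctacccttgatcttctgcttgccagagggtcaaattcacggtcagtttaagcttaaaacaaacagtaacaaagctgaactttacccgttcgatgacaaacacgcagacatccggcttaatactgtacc
Idh1: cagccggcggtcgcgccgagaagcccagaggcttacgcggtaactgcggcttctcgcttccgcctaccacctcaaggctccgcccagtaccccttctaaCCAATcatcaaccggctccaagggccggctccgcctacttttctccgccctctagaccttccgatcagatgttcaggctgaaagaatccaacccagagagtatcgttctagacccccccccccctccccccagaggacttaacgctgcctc
Got1: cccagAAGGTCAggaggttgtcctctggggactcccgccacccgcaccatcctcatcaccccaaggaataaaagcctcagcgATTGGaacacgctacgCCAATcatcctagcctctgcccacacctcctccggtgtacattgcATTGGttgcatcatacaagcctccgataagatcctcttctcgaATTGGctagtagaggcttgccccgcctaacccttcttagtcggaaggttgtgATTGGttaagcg
RefSeq promoters were matched for 37 of the 41 members, with 50 starts in all. On both strands, AAGGTCA occurred before 1 of these 50 starts, that of Got1, and before 4.08% of all 32851 starts. The longer TCAAGGTCA, which contains it, occurred before 0 of 50 and 0.387% of all. CCAAT occurred before 27 of 50 starts and 33.8% of all, CACGTG (the E-box) before 5 of 50 and 6.02%, TGACGTCA (the cAMP response element) before 4 of 50 and 1.55%, and the NRF1 site before 0 of 50 and 0.782%. Several starts can belong to 1 gene: by gene, CCAAT was found for 22 of 37 members and 37.5% of all genes, CACGTG for 3 of 37 and 6.86%, and TGACGTCA for 2 of 37 and 1.77%. These are matches of letters and not measured sites.

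Across the 41 members, 25 were lower and 1 was higher in mdx/mTR at an adjusted p below 0.05 in edgeR's quasi-likelihood test, against 23.4% of all 13937 tested genes called lower and 25.0% called higher (48.3% in either direction). The median log2 fold change of the members was -0.27, beside 0.01 over all tested genes, and 40 of 41 had a negative value, beside 48.2% of all tested genes. Falls were mostly small: 1 member, Bdh1, was called and at least 2-fold lower, as were 1.94% of tested genes. The 6 mdx/mTR mice all lay below the 6 WT mice for 17 members, and above them for 1, against a background of 12.6% in each direction. In RNA of whole muscle, fewer fibres and less RNA per fibre cannot be told apart.

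How many members count as lower depends on the scaling. With library totals alone, the median of all tested genes moved to 0.17, and 15 members were lower and 1 higher, against backgrounds of 11.2% and 40.2% (51.3% in either direction; over all tested genes 1560 lower and 5596 higher, beside 3257 and 3479 with TMM). Scaled to the 11 fast fibre genes, an alternative chosen after seeing the data, 16 members were lower and 1 higher, against 9.8% and 31.2%. Of these 11 scaling genes, 2 were themselves lower and 1 higher with TMM. The 10 falls lost with library totals alone were those of Cs, Dld, Idh3b, Ogdh, Dlst, Bckdhb, Ivd, Auh, Acad8 and Hibadh. The other 16 called members kept their call under each of the 23 alternatives run. Without mdx/mTR replicate 4, 7 further members passed (Idh3g, Mdh2, Bckdha, Ppm1k, Mccc1, Pccb and Oxct1), so that 32 were lower. The share of all tested genes is not given for that fit, so the rise cannot be read as particular to the members. Leaving out another single mouse brought in Acadsb or Sucla2 (mdx/mTR replicate 1), Aco1 (WT replicate 1 or mdx/mTR replicate 5), Mccc1 (WT replicate 6 or mdx/mTR replicate 1) or Ppm1k (WT replicate 6 or mdx/mTR replicate 6), and Dlst was the called member that lost its call in this way; Ivd lost it without WT replicate 2 and mdx/mTR replicate 5 together. All further values use TMM unless another scaling is named.

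**Figure D1:**
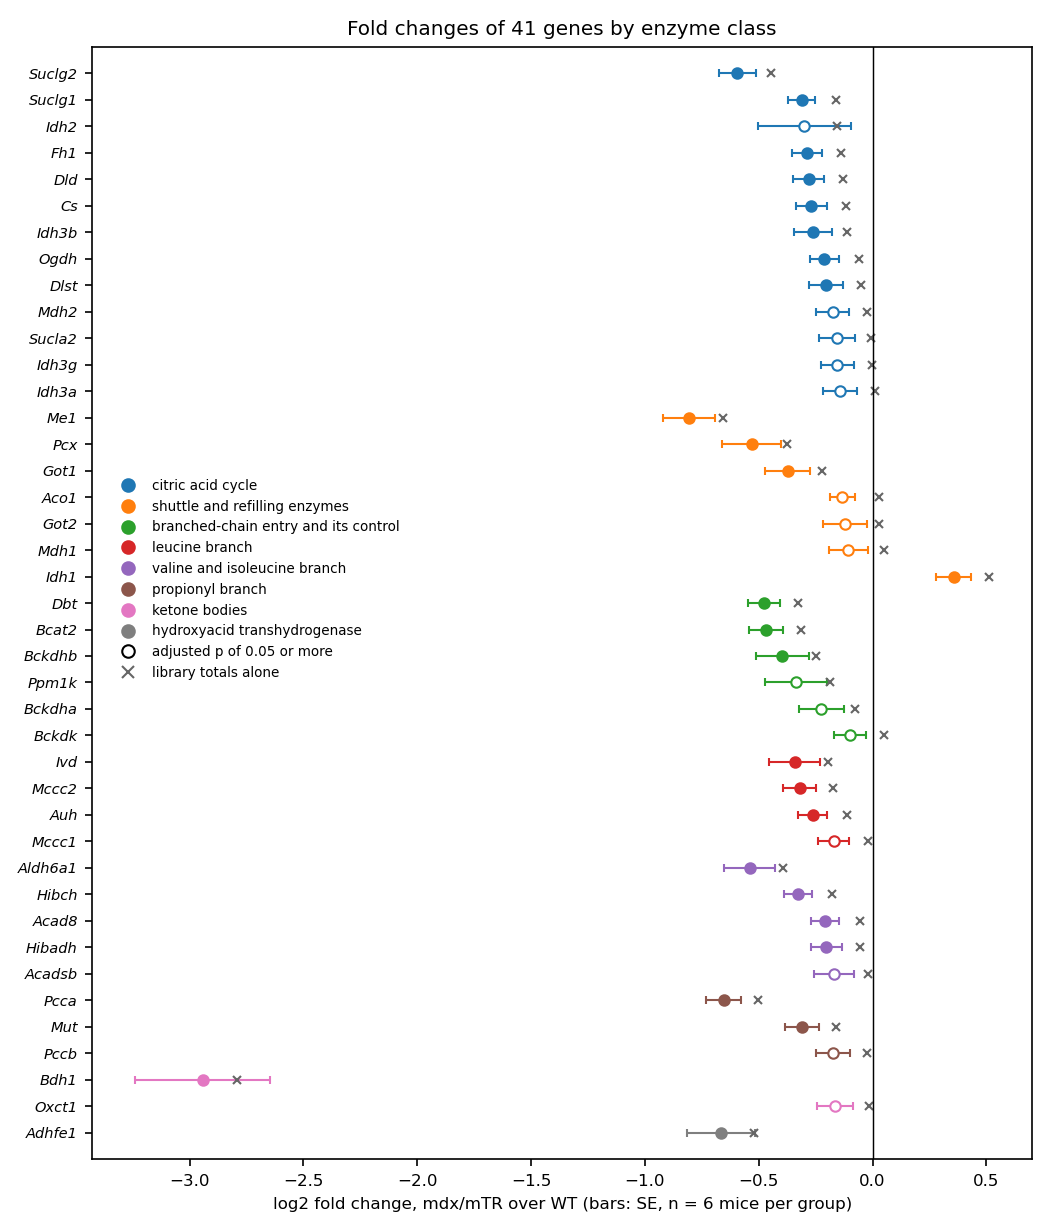
The horizontal axis gives the log2 fold change (mdx/mTR relative to WT) for each of the 41 genes on the vertical axis, coloured by enzyme class, with bars for the SE over 6 mice per group. Filled points passed an adjusted p of 0.05, and crosses give the value with library totals alone. Bdh1 stands at -2.94, Idh1 is the gene to the right of 0 at 0.36, and the crosses lie to the right of the points.

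In the citric acid cycle, 8 of 13 enzyme genes were lower and 0 higher, against 23.4% and 25.0% of all tested genes. The median log2 fold change of the 13 was -0.26, with a range of -0.59 to -0.14. Suclg2, which encodes the GTP-forming beta subunit of succinyl-CoA ligase, showed the largest fall. It lay at 36.8, 40.0 and 42.4 CPM (lowest, median and highest) in WT and at 20.8, 27.7 and 29.3 CPM in mdx/mTR. The groups did not overlap, and the log2 fold change was -0.59 ± 0.08 (SE, n = 6 mice per group; edgeR adjusted p = 7.4e-05). For Suclg2, 21.8% of the 50-base stretches of its transcript also occur in the transcript of Gm15163, so its level is uncertain to that extent.

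Suclg1, the alpha subunit shared by both ligases, ran from 339 through a median of 354 to 370 CPM in WT and from 233 through 294 to 303 CPM in mdx/mTR. These ranges did not overlap (edgeR log2 fold change -0.31 ± 0.06 SE, adjusted p = 0.00098). Sucla2, the ATP-forming beta subunit, ran from 639 through 660 to 716 CPM in WT and from 464 through 609 to 691 CPM in mdx/mTR. Its groups overlapped, and it did not pass the test (-0.16 ± 0.08 SE, adjusted p = 0.12). Per kilobase of exon, Sucla2 was the more abundant beta subunit in this muscle, at 298 CPM per kb in WT against 10.5 for Suclg2.

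Fumarase (Fh1), which hydrates fumarate to malate, ran from 323 through 345 to 362 CPM in WT and from 230 through 285 to 307 CPM in mdx/mTR. All mdx/mTR mice lay below all WT mice (edgeR log2 fold change -0.29 ± 0.06 SE, adjusted p = 0.0024). Citrate synthase (Cs), which condenses acetyl-CoA with oxaloacetate and whose activity is a common measure of mitochondrial content, ran from 1237 through 1287 to 1488 CPM in WT and from 908 through 1114 to 1139 CPM in mdx/mTR. Its groups did not overlap either (-0.27 ± 0.07 SE, adjusted p = 0.0059), but with library totals alone it was -0.12 and did not pass (adjusted p = 0.11). Dld, the lipoamide dehydrogenase shared by the pyruvate, oxoglutarate and branched-chain complexes, did not overlap between groups (377 to 440 CPM in WT, 270 to 359 in mdx/mTR; -0.28 ± 0.07 SE, adjusted p = 0.0044) and was -0.13 with library totals alone (adjusted p = 0.093).

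The other called cycle genes were Idh3b (-0.26), a subunit of the NAD-linked isocitrate dehydrogenase, and Ogdh and Dlst (both -0.21), the oxoglutarate dehydrogenase and its succinyltransferase. Their groups overlapped. Dlst was the weakest of them (edgeR adjusted p = 0.035) and lost its call without WT replicate 2, 3 or 5 or mdx/mTR replicate 1, 5 or 6, its log2 fold change running from -0.25 to -0.17 with single libraries left out. Idh3a, Idh3g, Sucla2, Mdh2 and Idh2 did not pass, with log2 fold changes from -0.30 for Idh2 to -0.14 for Idh3a. Idh2, the NADP-linked mitochondrial isocitrate dehydrogenase, varied most in WT: replicate 2 stood at 299 CPM and the other 5 at 111 to 181 CPM, beside 109 to 173 CPM in mdx/mTR. Without WT replicate 2 the log2 fold change of Idh2 was -0.06 (adjusted p = 0.75). The sign of Idh3a turned with library totals alone (0.01).

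Among the 7 shuttle and refilling enzymes, 3 were lower and 1 higher, against 23.4% and 25.0% of all tested genes. Malic enzyme (Me1), which turns cytosolic malate into pyruvate and yields NADPH, ran from 150 through 187 to 203 CPM in WT and from 80.2 through 105 to 129 CPM in mdx/mTR. The groups did not overlap, and Me1 had the second largest fall of the 41 genes (edgeR log2 fold change -0.81 ± 0.11 SE, adjusted p = 8.0e-05). For Me1, 26.5% of the 50-base stretches are shared with Gm7049 or Gm7329 and 20.3% lie antisense to Gm48795, so its level is uncertain. Within WT it was lowest in replicate 2.

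Pyruvate carboxylase (Pcx), which refills oxaloacetate from pyruvate, ran from 92.7 through 127 to 138 CPM in WT and from 54.1 through 89.8 to 99.9 CPM in mdx/mTR. The groups overlapped only through WT replicate 2, the lowest WT mouse (edgeR log2 fold change -0.53 ± 0.13 SE, adjusted p = 0.0041). Cytosolic aspartate aminotransferase (Got1) ran from 636 through 738 to 843 CPM in WT and from 430 through 560 to 686 CPM in mdx/mTR, again with some overlap (-0.37 ± 0.10 SE, adjusted p = 0.0062).

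Idh1, the cytosolic NADP-linked isocitrate dehydrogenase, was the exception among the 41 genes. It ran from 23.8 through 26.6 to 28.2 CPM in WT and from 31.1 through 31.8 to 41.7 CPM in mdx/mTR, every mdx/mTR mouse above every WT mouse (edgeR log2 fold change 0.36 ± 0.08 SE, adjusted p = 0.0017). Its highest value belonged to mdx/mTR replicate 2. Aco1, Got2 and Mdh1 did not pass (-0.13, -0.12 and -0.11), and their signs turned with library totals alone (0.03, 0.03 and 0.05). In Got2, the mitochondrial aminotransferase, 32.3% of stretches are shared with Got2-ps1 and 41.2% lie antisense to other genes.

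**Figure D2:**
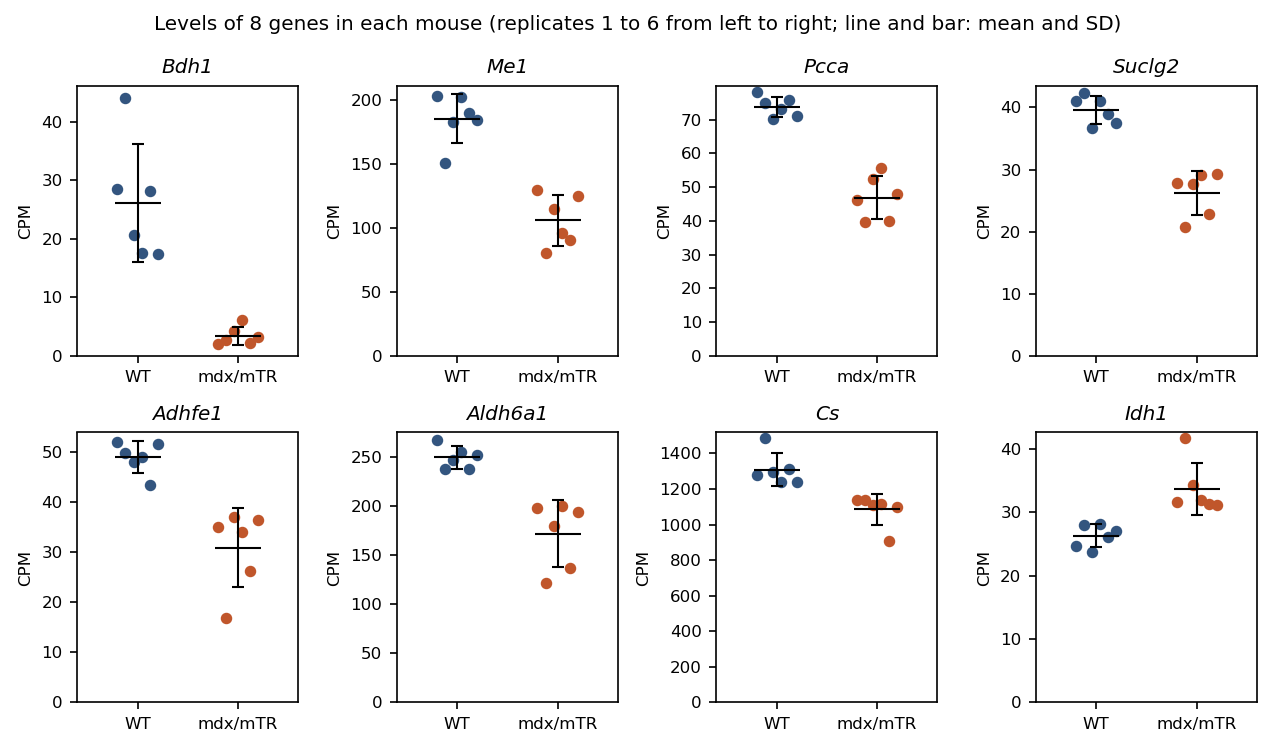
CPM on the vertical axis, from 0, for 8 genes in each of the 6 WT and 6 mdx/mTR mice, with lines and bars for mean and SD. Bdh1 shows the widest gap between groups, Idh1 is the gene with mdx/mTR above WT, and mdx/mTR replicate 2 is the lowest point for Me1, Pcca, Suclg2, Adhfe1 and Aldh6a1.

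Branched-chain catabolism had 12 of 18 genes lower and 0 higher, against 23.4% and 25.0% of all tested genes, with a median log2 fold change of -0.32 and a range of -0.65 to -0.10. The mdx/mTR mice all lay below the WT mice for 9 of the 18, against 12.6%. With library totals alone 7 of the 18 were lower, against 11.2%, and the median was -0.17.

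At the entry to the pathway, mitochondrial branched-chain aminotransferase (Bcat2) ran from 71.5 through 74.4 to 79.8 CPM in WT and from 43.2 through 54.6 to 61.6 CPM in mdx/mTR, without overlap (edgeR log2 fold change -0.47 ± 0.07 SE, adjusted p = 0.00018). Dbt, the acyltransferase core of the branched-chain ketoacid dehydrogenase, ran from 44.8 through 46.0 to 52.2 CPM in WT and from 28.2 through 35.1 to 37.6 CPM in mdx/mTR, again without overlap (-0.48 ± 0.07 SE, adjusted p = 0.00013). Bckdhb, the beta subunit of its decarboxylase, was lower with overlap (25.5 to 33.3 CPM in WT, 14.9 to 26.0 in mdx/mTR; -0.40 ± 0.12 SE, adjusted p = 0.012). Bckdha, the alpha subunit, did not pass (-0.23 ± 0.10 SE, adjusted p = 0.073) but did without mdx/mTR replicate 4, at -0.32 (adjusted p = 0.0039); 50.8% of its stretches lie antisense to B3gnt8, and the strand handling of the counts is not given.

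The complex is switched off by the kinase Bckdk and on by the phosphatase Ppm1k. Bckdk ran from 234 through 241 to 250 CPM in WT and from 190 through 233 to 253 CPM in mdx/mTR. That spread covered the WT range, and the gene did not pass (edgeR log2 fold change -0.10 ± 0.07 SE, adjusted p = 0.26; 0.05 with library totals alone). Ppm1k ran from 18.4 through 21.2 to 32.7 CPM in WT and from 14.6 through 18.4 to 21.3 CPM in mdx/mTR. The ranges overlapped and its value lay just outside the threshold (-0.34 ± 0.14 SE, adjusted p = 0.055), with WT replicate 2 as its highest mouse.

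In the leucine branch 3 of 4 genes were lower, against 23.4% of all tested genes. Each of the 3 was without overlap between groups, against 12.6%. Isovaleryl-CoA dehydrogenase (Ivd), the oxidising step after the complex, ran from 181 through 194 to 205 CPM in WT and from 103 through 163 to 178 CPM in mdx/mTR (edgeR log2 fold change -0.34 ± 0.11 SE, adjusted p = 0.020). Mccc2, the beta subunit of methylcrotonyl-CoA carboxylase, ran from 40.7 through 41.8 to 44.2 CPM in WT and from 27.8 through 35.3 to 37.5 CPM in mdx/mTR (-0.32 ± 0.07 SE, adjusted p = 0.0021). Auh, the next hydratase, fell by 0.26 on the log2 scale (adjusted p = 0.0037). Mccc1, the biotin-carrying alpha subunit, gave -0.17 ± 0.07 (SE; adjusted p = 0.052).

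Of the 5 genes of valine and isoleucine breakdown, 4 were lower, against 23.4% of all tested genes. Aldh6a1, the methylmalonate semialdehyde dehydrogenase at the end of the valine branch, ran from 238 through 249 to 267 CPM in WT and from 121 through 187 to 200 CPM in mdx/mTR. It had the largest fall of the branch and no overlap (edgeR log2 fold change -0.54 ± 0.11 SE, adjusted p = 0.0015). Hibch, which releases hydroxyisobutyrate, also separated the groups (48.9 to 53.3 CPM in WT, 34.0 to 44.4 in mdx/mTR; -0.33 ± 0.06 SE, adjusted p = 0.00069). Acad8, the isobutyryl-CoA dehydrogenase, and Hibadh, the hydroxyisobutyrate dehydrogenase, were lower by smaller amounts (-0.21 and -0.20), with overlapping groups. Acadsb, the short branched-chain dehydrogenase of the isoleucine branch, did not pass (-0.17, adjusted p = 0.13).

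In the propionyl branch, the 2 subunits of propionyl-CoA carboxylase differed. Pcca, the biotin-carrying alpha subunit, ran from 70.1 through 74.0 to 78.0 CPM in WT and from 39.6 through 47.1 to 55.6 CPM in mdx/mTR, far apart (edgeR log2 fold change -0.65 ± 0.08 SE, adjusted p = 2.2e-05). Pccb, the beta subunit, ran from 115 through 119 to 130 CPM in WT and from 88.0 through 110 to 122 CPM in mdx/mTR, with overlap (-0.17 ± 0.07 SE, adjusted p = 0.067). Mut, the methylmalonyl-CoA mutase that delivers succinyl-CoA to the cycle, was lower without overlap (104 to 114 CPM in WT, 71.0 to 102 in mdx/mTR; -0.31 ± 0.07 SE, adjusted p = 0.0036).

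Bdh1 had the largest change of all 41 genes. Its values were 17.5, 24.4 and 44.0 CPM (lowest, median and highest) in WT and 2.06, 2.91 and 6.11 CPM in mdx/mTR, so the highest mdx/mTR mouse stood well under the lowest WT mouse. Means were 26.0 ± 10.1 and 3.42 ± 1.56 CPM (SD, n = 6 each), mdx/mTR being at 13.1% of WT, and the log2 fold change was -2.94 ± 0.30 (SE; edgeR adjusted p = 6.3e-06). The log2 fold change of Bdh1 ran from -3.19 to -2.73 with single libraries left out and was -2.79 with library totals alone. The gene lies on chromosome 16, bases 31422280 to 31458901 on the + strand (GRCm38, GENCODE M21). Oxct1, the next enzyme of ketone oxidation and far more abundant (173 CPM per kb of exon in WT against 7.14 for Bdh1), ran from 537 through 623 to 652 CPM in WT and from 464 through 552 to 621 CPM in mdx/mTR. Of its stretches 12.05% lie antisense to BC037032. Its groups overlapped and it did not pass (-0.16 ± 0.08 SE, adjusted p = 0.10), though it did without mdx/mTR replicate 4 (adjusted p = 0.047).

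Adhfe1, which oxidises hydroxybutyrate of the gamma series while making hydroxyglutarate, ran from 43.4 through 49.3 to 52.0 CPM in WT and from 16.8 through 34.5 to 36.9 CPM in mdx/mTR. All mdx/mTR mice were below all WT mice, mdx/mTR replicate 2 lowest (edgeR log2 fold change -0.67 ± 0.15 SE, adjusted p = 0.0026).

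To compare partner genes free of library scaling, the log2 ratio of their counts was taken within each library for 13 pairs and tested with a two-sided exact permutation test over mice, whose smallest possible p is 0.00216, adjusted over the 13 ratios. Count ratios are not corrected for length, so their levels do not give the relative abundance of the partners. Differences between groups are given here, and levels only for single mice flagged further below. The 13 pairs were chosen with earlier results of these data known, so their p-values give no independent support. The ratio differed for 7 of 13 pairs. The difference (mdx/mTR minus WT) was -2.79 ± 0.31 for Bdh1/Oxct1 (SE, n = 6 mice per group) and -0.48 ± 0.05 for Pcca/Pccb. It was -0.25 ± 0.07 for Got1/Got2, -0.24 ± 0.08 for Dbt/Bckdha and 0.44 ± 0.08 for Sucla2/Suclg2. In each of these 5 pairs the mdx/mTR and WT mice did not overlap (exact permutation p = 0.00216, adjusted p = 0.0056). Mccc1 rose against Mccc2 by 0.15 ± 0.04 with overlap (exact permutation p = 0.0043, adjusted p = 0.0094).

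Idh1 rose against Idh2 by 0.59 ± 0.24 (exact permutation p = 0.024; adjusted, 0.044). Leaving out a single mouse ended this call for 9 of the 12 mice; without WT replicate 2 the difference was 0.43 (adjusted p = 0.069). The ratio of the kinase to the phosphatase, Bckdk to Ppm1k, was higher by 0.22 ± 0.12 and did not pass (exact permutation p = 0.0498, adjusted p = 0.081); without WT replicate 6 it was 0.27 (adjusted p = 0.024). Bckdha to Bckdhb did not pass (0.17 ± 0.11, exact permutation p = 0.16, adjusted p = 0.22) but did without WT replicate 2 (0.24, adjusted p = 0.024). Idh3a to Idh3g moved by 0.01 ± 0.05 (exact permutation adjusted p = 0.80) and Mdh1 to Mdh2 by 0.07 ± 0.06 (adjusted p = 0.29). Against Cs, the cycle's entry enzyme, Hibch moved by -0.06 ± 0.04 (exact permutation adjusted p = 0.22) and Ivd by -0.10 ± 0.13 (adjusted p = 0.72).

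**Figure D3:**
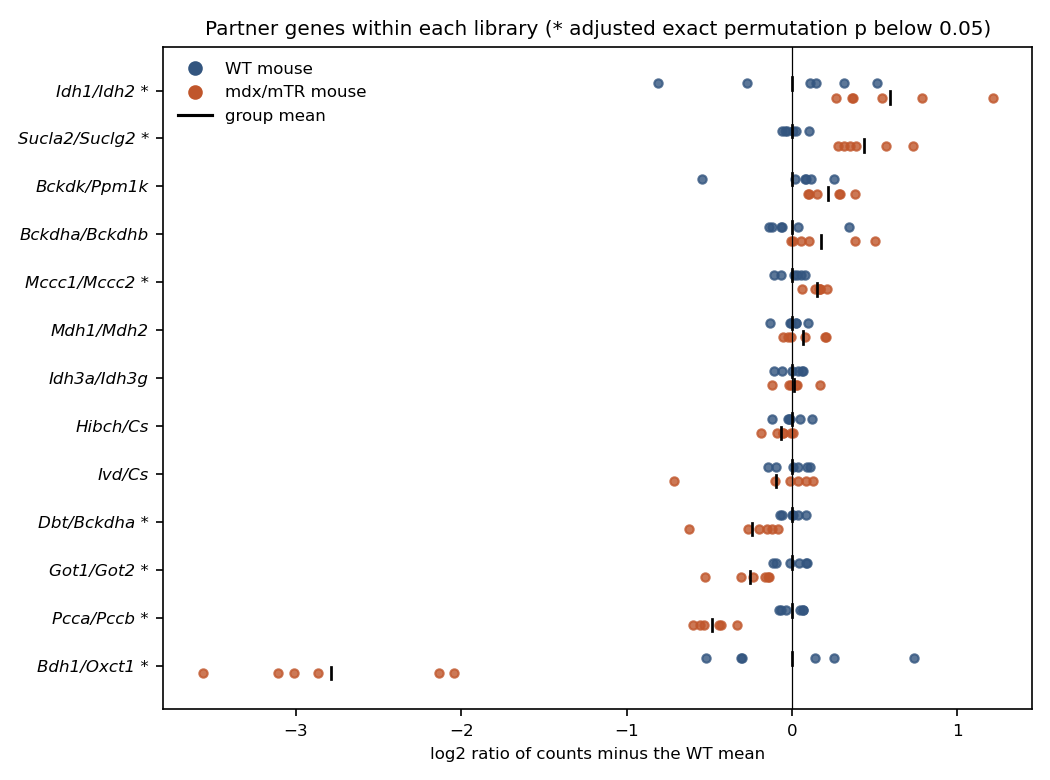
Log2 ratio of counts of each gene pair within a library, minus the WT mean, on the horizontal axis, with a point per mouse, a tick for each group mean and pairs on the vertical axis. Bdh1 against Oxct1 lies far to the left in all 6 mdx/mTR mice, and Pcca against Pccb and Sucla2 against Suclg2 separate the groups without overlap.

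Set side by side, the cycle and the breakdown of branched-chain amino acids and ketone bodies both had most of their genes called lower. Breakdown had 13 of 20 genes lower with a median log2 fold change of -0.32, and the cycle 8 of 13 with -0.26, against 23.4% of all tested genes called lower. The groups did not overlap for 10 of 20 and 5 of 13 genes, against 12.6%. With library totals alone 8 of 20 and 3 of 13 were lower, against 11.2%. The difference between the 2 sides was not tested. Per kilobase of exon the cycle genes were the more abundant in WT, with a median of 298 CPM per kb (10.5 for Suclg2 to 747 for Mdh2), against 27.9 for breakdown (4.11 for Ppm1k to 173 for Oxct1).

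The sides came apart most in mdx/mTR replicate 2. For each mouse, the median over a side of the log2 of CPM over the WT mean was taken. In mdx/mTR the cycle stood at -0.17, -0.20, -0.18, -0.15, -0.53 and -0.27 in replicates 1 to 6, and breakdown at -0.17, -0.49, -0.29, -0.13, -0.54 and -0.21. Replicate 5 was low on both sides, and replicate 2 was low for breakdown but not for the cycle, with a difference (breakdown minus cycle) of -0.30. This difference was -0.12 in replicate 3 and -0.01 to 0.06 in the other mdx/mTR mice, beside -0.05 to 0.09 in WT. In WT all 6 mice lay between -0.09 and 0.10 on both sides.

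The same 2 mice gave the lowest mdx/mTR value for most members: replicate 5 for 24 and replicate 2 for 14 of 41, against 21.3% and 19.6% of all tested genes. In the cycle, replicate 5 was lowest for 11 of 13 genes and replicate 2 for 2. In breakdown, replicate 5 was lowest for 10 of 20 and replicate 2 for 9, among them Bckdhb (14.9 CPM), Ivd (103 CPM) and Aldh6a1 (121 CPM). These 2 libraries also had the highest summed levels in mdx/mTR of the 8 regenerating fibre genes (517 CPM in replicate 5 and 255 in replicate 2, against 115 to 153 in the other 4), of the 8 macrophage genes (675 and 458 CPM, against 252 to 432) and of the 6 fibroblast genes (4434 and 4222 CPM, against 2226 to 2750), and the lowest of the 11 fast fibre genes (164749 and 176318 CPM, against 188699.9 to 224388). The fast fibre genes were not low as a whole in replicate 2. There Acta1 (33123 CPM) and Myh1 (13061 CPM) were highest among the mdx/mTR mice, and Myh4 (35257 CPM), Atp2a1 (31878 CPM) and Actn3 (6057 CPM) lowest. The part of these 2 libraries in the result was not tested. Without replicate 5, and likewise without replicate 2, 25 members were lower. The share of all tested genes is not given for these fits.

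WT replicate 2 was highest in WT for 12 of 13 cycle genes and 25 of 41 members, against 25.6% of all tested genes. Its summed level of oxidative and slow fibre genes was 2400 CPM, beside 752 to 1282 CPM in the other 5. Of that sum Myh2 alone gave 2161 CPM. Myl3, Myl2, Tnnc1 and Atp2a2 were also highest in WT replicate 2, but Myh7, Tnnt1 and Tnni1 were highest in WT replicate 3. Members varied more among mdx/mTR mice: the coefficient of variation had a median of 12.4% (4.87% to 45.5%) in mdx/mTR and 5.24% (2.42% to 40.2%) in WT, and was larger in mdx/mTR for 38 of 41, against 62.7% of all tested genes.

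**Figure D4:**
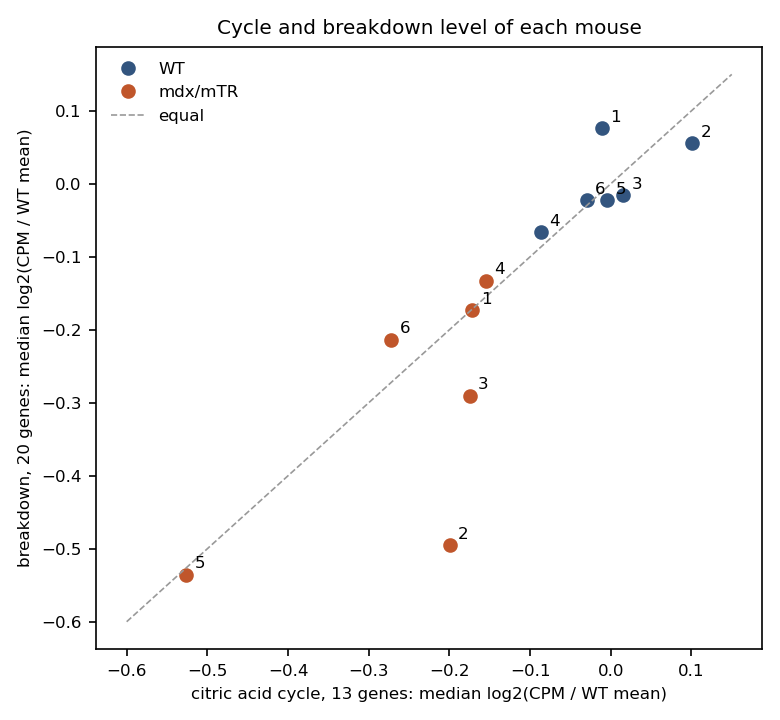
Median log2 of CPM over the WT mean for the 13 cycle genes (horizontal axis) and the 20 breakdown genes (vertical axis), with a point per mouse labelled by replicate and a dashed line where both are equal. mdx/mTR replicate 5 is low on both axes and replicate 2 lies well below the line, at -0.20 for the cycle and -0.49 for breakdown.

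**Figure D5:**
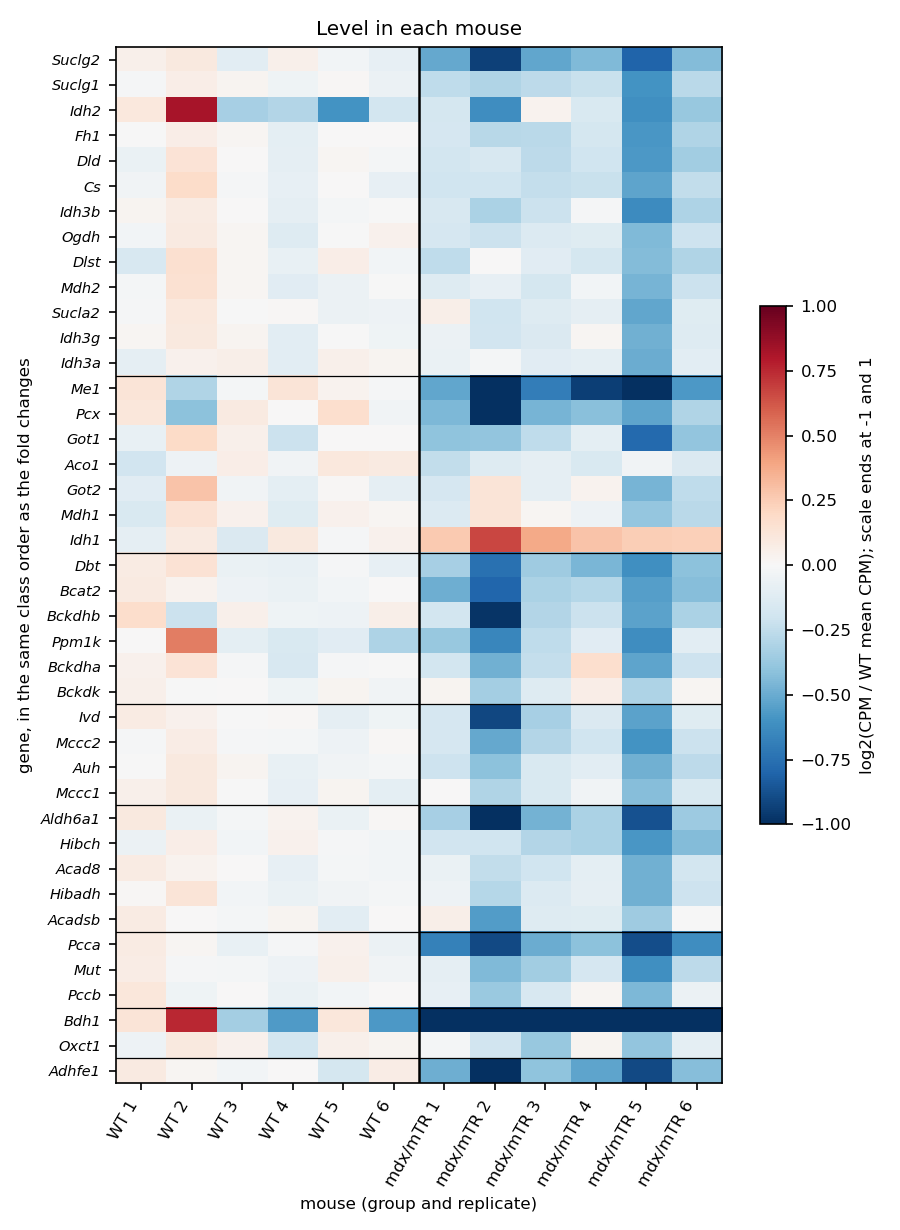
Log2 of CPM over the WT mean, as colour, for 41 genes (rows, by enzyme class) in 12 mice (columns), with values beyond -1 shown at the end of the scale. The mdx/mTR columns are mostly blue, darkest in replicates 2 and 5, with Idh1 as a red row and Bdh1 as the darkest row.

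Other genes of these pathways were taken from 4 lists, whose counts are to be read against 23.4% of all tested genes called lower and 25.0% called higher (11.2% and 40.2% with library totals alone). Of 14 further cycle and succinate genes, including the succinate dehydrogenase subunits, 5 were lower, among them Sdhb and Sdhc (-0.25 and -0.16), and 3 higher (Ogdhl, Me2 and D2hgdh), with a median log2 fold change of -0.11. With library totals alone 1 was lower and 3 higher (median 0.04), and Sdhb (-0.10, edgeR adjusted p = 0.27) and Sdhc (-0.01, adjusted p = 0.83) did not pass. Me2, the mitochondrial NAD-linked malic enzyme, rose from 4.17 ± 0.835 to 7.92 ± 1.79 CPM (SD, n = 6 each; 0.92 ± 0.15 SE, edgeR adjusted p = 0.00031), opposite in direction to Me1. Ogdhl, a relative of Ogdh, rose by 0.73 (adjusted p = 0.0021) at low levels.

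Of 12 further branched-chain and propionyl genes 8 were lower and 1 higher (median -0.26), the latter being Bcat1, the cytosolic aminotransferase (1.53). Scaled by library totals alone, 5 were lower and 2 higher (median -0.12). Acat1, the thiolase that splits acetoacetyl-CoA and serves isoleucine and ketone breakdown, fell from 301 ± 18.1 to 204 ± 28.4 CPM (SD, n = 6 each; -0.56 ± 0.08 SE, adjusted p = 0.00012). Ehhadh (-0.63, adjusted p = 0.00020), a peroxisomal enzyme, and Slc25a44 (-0.34, adjusted p = 0.00021), the mitochondrial branched-chain amino acid carrier, also fell.

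In 6 further ketone and acetate genes 1 was lower and 2 were higher (median 0.20), and with library totals alone 1 was lower and 3 were higher (median 0.36). The lower gene was Acss1, the mitochondrial acetyl-CoA synthetase, which fell from 27.4 ± 6.20 to 15.9 ± 5.35 CPM (SD, n = 6 each) with overlapping groups (-0.80 ± 0.20 SE, edgeR adjusted p = 0.0045).

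Of 10 regulators 4 were lower (Esrra, Esrrg, Ppargc1b and Gabpa) and 0 higher (median -0.09). Scaled by library totals alone, 3 were lower and 1 higher (median 0.06). Gabpa, at -0.12 (edgeR adjusted p = 0.047), then turned to 0.03 (adjusted p = 0.63), and to 0.02 with fast fibre scaling (adjusted p = 0.84). Esrrg, an oestrogen-related receptor that drives genes of oxidative metabolism, fell from 39.0 ± 4.20 to 15.5 ± 5.22 CPM (SD, n = 6 each; -1.33 ± 0.18 SE, adjusted p = 5.4e-05) without overlap. Its relative Esrra fell by 0.45 (adjusted p = 0.00028) and the coactivator gene Ppargc1b by 0.78 (adjusted p = 0.00028). Sdhb, Sdhc and Gabpa thus lost their calls with library totals alone. The other 9 genes given with an adjusted p from these lists kept call and sign under every alternative run. They were Me2, Ogdhl, Acat1, Ehhadh, Slc25a44, Acss1, Esrrg, Esrra and Ppargc1b.

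By the authors' deposited table, 29 of the 41 members are lower and 1 is higher at an adjusted p below 0.05, against 24.7% and 25.4% of the genes with an adjusted p there (50.1% in either direction). All 26 members called by edgeR are among the 30, all 41 have the same sign, and the authors' deposited table adds 4 calls.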

How the data were processed

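Total RNA of 12 muscles was sequenced, 6 per group. The authors deposited whole-number counts per gene symbol; STAR, FastQC, DESeq2 and the build mm10 are named without roles or versions, per the submitters' processing notes, and the counter, annotation and strand handling are not given in the sources used here. A second file, the authors' own comparison, lists log2 fold changes with standard errors and p-values before and after adjustment, per the file headers.

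The counts were tested with edgeR 4.0.16 in R 4.3.3 (filterByExpr, 13937 genes; TMM; group as the only term of glmQLFit and glmQLFTest; Benjamini-Hochberg over all tested genes, threshold 0.05). Each SE was the absolute log2 fold change over the root of the F statistic. Ratios used counts plus 0.5 and exact permutation tests in scipy 1.17.1. A floor of 3 counts corresponds to 0.0460 to 0.0837 CPM, for counting error only. Exon lengths, positions and shared 50-base stretches came from GENCODE M21 (GRCm38).

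On simulated counts for 13937 genes, edgeR recovered 12.0% of genes changed 1.2-fold, 28.0% at 1.25-fold, 78.0% at 1.5-fold and 86.0% at 2-fold, with 10 false calls. In that run 200 genes were changed, whereas 48.3% of all tested genes were called in the data. Of the 15 members not called, 14 changed by less than 1.25-fold. Some called members also lay below that size, among them Hibadh (1.15-fold lower) and Ogdh (1.16-fold lower). Whether the recovery rates apply to the members was not tested.

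All members may be named; per-mouse values are given for the 3 largest called changes of a class and for Cs, Fh1, Bckdk, Ppm1k, Oxct1 and Bdh1, and from each further list the 3 smallest p-values, apart from genes not reported here; the other called genes of those lists were named after their values were seen. Sucla2, Dld, Idh1, Idh2, Pccb and other members described in detail were chosen after their values were seen. Members, lists and pairs were chosen with earlier results of these data known. Alternatives were other filters, scalings and thresholds, DESeq2 1.42.0, limma-voom (limma 3.58.1), a replicate block and each mouse left out. Scaling to the 11 fast fibre genes and leaving out WT replicate 2 and mdx/mTR replicate 5 together were added after seeing the data. No library was a copy of another (chi-square per degree of freedom within groups 9.29 or more).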

Additional observations from a re-analysis of the deposited data

Results flagged for a closer look

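For each value, the distance from the most extreme of 6 mice to the next was divided by the whole range and compared with Dixon's 95% critical value. It was exceeded in 16 of 114 sets of 6, where chance gives about 1 in 20 (5.7). The values are not independent, since members move together within a mouse.

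In mdx/mTR, replicate 5 was lowest for Cs (908 CPM, next mouse 1100.2), Idh3a (691, next 904), Ogdh (1146, next 1340), Suclg1 (233, next 287) and Fh1 (230, next 280), and for the level of the cycle (-0.53, next -0.27 on the log2 scale). Replicate 2 was highest for Idh1 (41.7 CPM, next 34.3) and lowest for Pcx (54.1 CPM, next 85.6) and for the log2 ratio of Ivd to Cs (-3.47, next -2.85). Replicate 4 was lowest for the log2 ratio of Dbt to Bckdha (-2.59, next -2.23).

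In WT, replicate 2 was highest for Cs (1488 CPM, next 1312), Idh2 (299, next 181), Got2 (346, next 285) and Ppm1k (32.7, next 23.0) and for the log2 ratio of Bckdha to Bckdhb (2.99, next 2.68), and lowest for the log2 ratio of Bckdk to Ppm1k (2.88, next 3.44).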

How the results depend on the processing

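Library scaling moved the counts most. Shares of all tested genes are given above for TMM, library totals alone and fast fibre scaling. For the other settings they are not given, so those counts cannot be read as particular to the members. With library totals alone 16 members passed, 15 of them lower, with 3 lower in the cycle and 8 in breakdown. Scaling to the 11 fast fibre genes gave 17, of which 16 were lower, with 3 lower in the cycle. TMM and the scaling of DESeq2 (RLE) gave 26 each and upper quartile 24. At an adjusted p of 0.01, 5 cycle genes were lower. DESeq2 called 30 members and limma-voom 27. With single mice left out 25 to 33 members passed, the most without mdx/mTR replicate 4, and 25 without both WT replicate 2 and mdx/mTR replicate 5. Signs turned for members that had not passed: with library totals alone Idh3a (0.00892), Aco1 (0.0266), Mdh1 (0.0480), Got2 (0.02997) and Bckdk (0.0499), and with fast fibre scaling Aco1 (0.0161), Mdh1 (0.0353), Got2 (0.0188) and Bckdk (0.0330). Leaving out single mice, ratio Idh3a/Idh3g ran from -0.0189 (without mdx/mTR replicate 2) to 0.0400 and ratio Ivd/Cs from -0.142 to 0.0260 (without mdx/mTR replicate 2); without WT replicate 2 and mdx/mTR replicate 5 ratio Ivd/Cs was -0.144. The cause was not tested. The labels do not say that the replicate numbers pair mice. Deviations of same-numbered libraries correlated from -0.139 to 0.334, which was not tested and cannot decide whether mice were paired. With the replicate block 28 members passed; 0 of the 13 ratios passed the paired sign-flip test, whose smallest possible p is 0.0312; the lowest adjusted p was 0.058.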
